A study of Mus musculus with 4 samples.

Results

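The regions described here were 1922 peaks of an assay for accessible chromatin that the second control library placed inside annotated mouse pseudogenes. Whether each peak reflects open chromatin at the pseudogene was not tested. They were chosen by position: the peak summit had to lie within a pseudogene of the mm10 annotation on chromosomes 1 to 19 or X, and pseudogenes whose symbol names a ribosomal protein (Rpl or Rps followed by -ps) were left out, which removed 127 peaks. The members made up 6.94% of the 27698 peaks of that library on these chromosomes and lay in 1708 of the 10190 annotated pseudogenes (16.8%). Because the choice used the control 2 peak list itself, the number, strength and share of pseudogene peaks in control 2 are given as a description and were not tested.

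A processed pseudogene, or retrocopy, arises when the spliced messenger RNA of a gene is copied back into DNA by the LINE-1 machinery and inserted elsewhere in the genome. It therefore lacks the introns and usually the promoter of its parent gene, and genes with abundant germline transcripts, such as those for ribosomal proteins, glycolytic enzymes and translation factors, have left many such copies. Unprocessed pseudogenes arise instead by duplication of genomic DNA and keep the exon and intron layout of the parent, and unitary pseudogenes are genes that decayed in place.

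Accessible chromatin was measured by ATAC-seq, in which the transposase Tn5 cuts and tags exposed DNA, in RAW264.7 cells, a wild-type mouse macrophage line. All cells were given DIL-oxLDL, fluorescently labelled oxidised low-density lipoprotein, at 25 ug/mL for 24 h. The control group received DMSO (n = 2 libraries) and the esculetin group received 40 ug/mL of the coumarin esculetin (n = 2 libraries). The labels do not say whether the libraries of a group came from separate cultures, so a spread between them may be technical.

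The 4 peak lists held between 8559 and 27698 peaks on these chromosomes, and the background coverage that could be recovered from them lay between 4.08 and 6.51 reads. Macrophage genes had a promoter peak in 6 of 10 cases in control 1, 6 of 10 in control 2, 1 of 10 in esculetin 1 and 5 of 10 in esculetin 2, while the kidney, fibroblast and T cell genes had none in any library. The strength of a peak is given here as its coverage over background, the read coverage at the summit divided by the background coverage of the same library. A region is listed only where it passed the peak caller, so a region without a call has no value and is not thereby shown to be closed. In a bulk library, a region open in fewer cells and a region less open in each cell cannot be told apart.

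Most members were intronless copies, which is visible in the sequences. Each pair below, shown because these copies carried some of the highest peaks or belong to the largest families, sets a stretch of the pseudogene transcript above the coding stretch of its parent transcript. Both lines come from the GENCODE vM39 transcripts, matched by name, and are written 5′ to 3′. Capitals in the parent line mark the last base of an exon and the base that starts the next exon, which an intron separates in the genome, and capitals in the pseudogene line mark bases that differ from the parent.
Tpt1-ps3: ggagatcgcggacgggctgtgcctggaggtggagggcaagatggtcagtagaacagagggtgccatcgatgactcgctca
Tpt1: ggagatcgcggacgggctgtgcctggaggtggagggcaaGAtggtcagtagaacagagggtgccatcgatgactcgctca
Gm15500: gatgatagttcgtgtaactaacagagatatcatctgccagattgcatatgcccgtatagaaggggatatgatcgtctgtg
Rpl5: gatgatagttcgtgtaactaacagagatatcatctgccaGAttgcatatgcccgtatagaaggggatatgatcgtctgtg
Gm11560: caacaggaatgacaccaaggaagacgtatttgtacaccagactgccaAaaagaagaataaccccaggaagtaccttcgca
Ybx1: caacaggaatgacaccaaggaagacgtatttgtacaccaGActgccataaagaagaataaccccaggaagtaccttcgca
Gm13456: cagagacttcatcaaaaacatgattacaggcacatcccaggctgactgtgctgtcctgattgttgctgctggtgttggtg
Eef1a1: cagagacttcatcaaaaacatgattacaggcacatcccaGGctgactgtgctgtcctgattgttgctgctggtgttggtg
Gm8864: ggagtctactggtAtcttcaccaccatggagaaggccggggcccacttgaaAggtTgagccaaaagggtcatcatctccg
Gapdh: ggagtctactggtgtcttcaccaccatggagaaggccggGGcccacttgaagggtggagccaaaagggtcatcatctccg
Hmgb1-ps2: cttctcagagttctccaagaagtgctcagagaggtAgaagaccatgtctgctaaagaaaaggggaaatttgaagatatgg
Hmgb1: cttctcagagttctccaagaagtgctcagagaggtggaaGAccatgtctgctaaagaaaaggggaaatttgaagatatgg

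The stretches were chosen to align without a gap across a point where the parent is interrupted, so all 6 pairs do so by choice. Tpt1-ps3, a copy of the growth-related protein gene Tpt1, joined exons 2 and 3 and matched the parent at all 80 bases. Gm15500 joined exons 3 and 4 of Rpl5, a protein of the large ribosomal subunit, and Gm13456 joined exons 3 and 4 of Eef1a1, the elongation factor that delivers aminoacyl-tRNA, again with 0 of 80 bases changed. Gm11560 differed from Ybx1, an RNA-binding protein gene, at 1 of 80 bases, and Hmgb1-ps2 from Hmgb1, a chromatin protein gene, also at 1. Gm8864 differed from Gapdh, the glycolytic dehydrogenase gene, at 3 of 80 bases. Over the whole transcripts the copies joined all 7 exon junctions of Rpl5, all 5 of Tpt1 and 6 of 7 of Ybx1. They joined 6 of 7 of Eef1a1, 5 of 6 of Gapdh and 3 of 4 of Hmgb1. Ubb-ps, another of the strongest members, joined 0 of the 1 junction of Ubb and had no such stretch to show.

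Processed pseudogenes held 1643 of the 1922 members (85.5%), against 60.8% of all annotated pseudogenes. Of the 6191 annotated processed pseudogenes, 1478 (23.9%) contained a member, whereas 45 of 1104 unprocessed or unitary pseudogenes (4.08%) did. The unprocessed and unitary class held 58 members, and 221 members lay in pseudogenes whose kind the annotation does not give. A pseudogene held 2 or more members in 177 cases, 145 of them processed, and Speer4cos, a long locus, held the most with 7. Large receptor families that mostly decayed after genomic duplication had few members: 1 of 317 olfactory receptor pseudogenes and 5 of 270 vomeronasal receptor pseudogenes carried a control 2 peak. Members lay far from promoters, with a median of 38.8 kb to the nearest coding start site, and 1.2% of them fell within 1 kb of one, against 32.6% of all control 2 peaks.

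The members were strong and broad peaks. Their coverage over background in control 2 ran from 3.43 to 91.9 with a median of 10.8, against a median of 7.11 over all control 2 peaks, and their median width was 480 bp against 335 bp. They supplied 56 of the 100 peaks and 488 of the 1000 peaks with the highest summit −log10 q-value in control 2. On the X chromosome, which has few peaks in this library, 135 members made up 17.7% of the control 2 peaks, the highest share of any chromosome, while on the other chromosomes the share lay between 4.36% and 9.18%. The share of annotated pseudogenes with a member was not high on X, at 12.3% of 975.

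The rule admitted peaks of any strength, so its edge is one of position. The 34 members with a summit under 50 bp from a pseudogene edge had a median coverage over background of 7.6, and the 18 peaks with a summit 1 to 50 bp outside a pseudogene had 7.72. Of these, 35.3% of the inner and 44.4% of the outer peaks were also called in control 1. The weakest members lay in Gm6522 (−log10 q-value 2.19), in Gm23647 (2.22) and in Vmn2r-ps17 (2.31).

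The same rule found far fewer pseudogene peaks in the other libraries. Control 1 had 353 (1.81% of its peaks), esculetin 1 had 101 (1.18%) and esculetin 2 had 105 (0.829%), beside the 1922 (6.94%) of control 2. The control group therefore averaged 1138 ± 1109 (SD, n = 2) and the esculetin group 103 ± 2.83 (SD, n = 2). The gap between the control libraries was larger than the difference between the group means, and without control 2 the difference between the groups shrank from -1034.5 to -250 peaks. The lists differ in length: among the strongest 8559 peaks of each by −log10 q-value, control 1 had 99, control 2 had 1176, esculetin 1 had 101 and esculetin 2 had 40, so that control 1 lay within the range of the esculetin libraries.

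Processed pseudogenes accounted for most of the gap between libraries. Their number was 222 in control 1, 1643 in control 2, 29 in esculetin 1 and 29 in esculetin 2. Unprocessed and unitary pseudogenes varied much less, with 42, 58, 28 and 33 peaks in the same order. The pseudogenes that carried peaks also differed in size: their median length was 1748 bp in control 1 and 1288 bp in control 2, but 10577 bp in esculetin 1 and 31689 bp in esculetin 2.

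**Figure D1:**
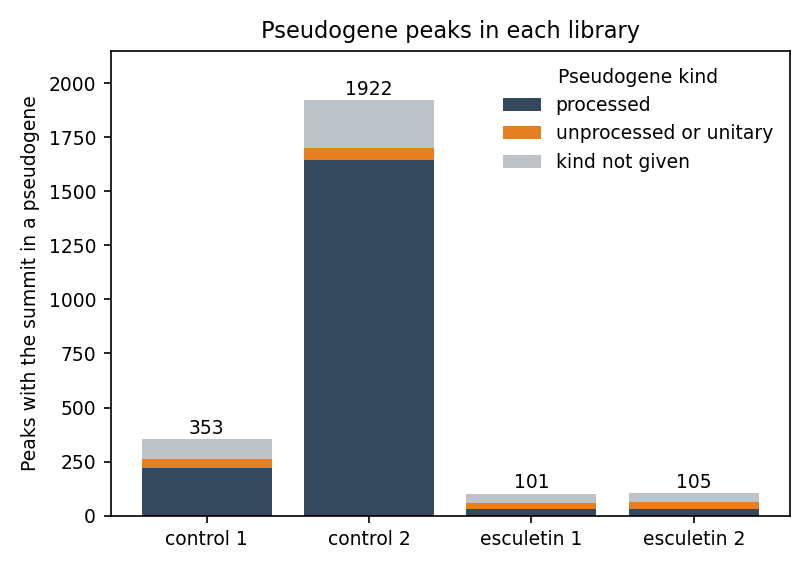
Number of peaks (vertical axis) whose summit lay in a pseudogene, for each of the 4 libraries, with bar segments for processed, unprocessed or unitary, and unclassified pseudogenes. Control 2 had 1922 such peaks and the other libraries between 101 and 353, and the processed segment ranged from 29 to 1643.

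Few members were called in any other library. Control 1 listed a peak overlapping 263 of the 1922 members (13.7%, exact 95% interval 12.2 to 15.3), where it overlapped 50.9% of all control 2 peaks. Esculetin 1 overlapped 66 members (3.43%, interval 2.67 to 4.35) against 25.9% of all control 2 peaks, and esculetin 2 overlapped 59 (3.07%, interval 2.34 to 3.94) against 33.8%. Intervals cover counting error only, and members that share a pseudogene are not independent. In all, 1645 members (85.6%) were in control 2 alone, against 45.6% of all its peaks, and 40 (2.08%) were in all 4 lists, against 22.7%.

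In every combination with other libraries the members' share was below that of all control 2 peaks. There were 192 members in both controls and neither esculetin library (9.99%, against 18.4% of all control 2 peaks), 169 of them in processed pseudogenes. There were 8 members shared with esculetin 1 alone (0.416%, against 0.657%), 6 with esculetin 2 alone (0.312%, against 1.94%) and 0 with both esculetin libraries but not control 1 (against 0.946%). The libraries of the esculetin group thus held 14 members that control 1 lacked.

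Overlap was lower for processed copies than for the other kinds. Of the processed members, 11.7% were called in control 1, 1.4% in esculetin 1 and 0.974% in esculetin 2. Of the unprocessed or unitary members, 31% were called in control 1, 19% in esculetin 1 and 17.2% in esculetin 2. Overlap was also higher for the 106 members in the longest pseudogenes. Members in pseudogenes shorter than 2 kb were called in 12.4% of cases in control 1, 1.56% in esculetin 1 and 0.849% in esculetin 2, and the 403 members in pseudogenes of 2 to 10 kb in 11.9%, 3.72% and 3.72%, whereas members in pseudogenes of 10 kb or longer were called in 37.7%, 27.4% and 30.2%. The 127 peaks in pseudogenes with a ribosomal protein symbol, which were left out, were called in 22.8% of cases in control 1, 2.36% in esculetin 1 and 0.787% in esculetin 2.

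Strong members were rarely called in the esculetin libraries. Among the 474 strongest members, with coverage over background from 19.4 to 91.9, control 1 called 26.8%, esculetin 1 called 2.95% and esculetin 2 called 0.844%. The 650 other control 2 peaks of at least that strength were called in 43.1%, 35.7% and 32% of cases. Among members that esculetin 2 did not call, 1426 (76.5%) had a control 2 coverage over background above the median of the esculetin 2 list. For esculetin 1 the number was 1458 (78.6%), and for control 1 it was 1491 (89.9%).

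Where a member was called in both controls, it was weaker in control 1. The coverage over background in control 2 was a median of 3.47 times that in control 1 over the 263 shared members, and it was higher in control 2 for 254 of them. Among the 193 shared processed members the ratio was 5.15, but it was 1.31 among the 70 other shared members and 1.34 among the 13838 shared peaks outside the members. The members shared with esculetin 1 had a median ratio of 1.37, with 2 among the 23 processed and 1.33 among the 43 other members, beside 1.28 for the other shared peaks. Those shared with esculetin 2 had 1.12, with 1.05 among the 16 processed and 1.14 among the 43 other members, beside 1.04. Seen from the other side, 190 of the 222 processed pseudogene peaks of control 1 (85.6%) overlapped a control 2 peak, as did 23 of 29 in esculetin 1 (79.3%) and 13 of 29 in esculetin 2 (44.8%). Other peaks did so in 72.7%, 82.6% and 72.6% of cases.

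The 10 members with the highest −log10 q-value in control 2 were copies of genes for translation, RNA binding, nuclear transport and ubiquitin, and their high control 2 values follow from that choice. Of the 10, control 1 called 9, esculetin 1 called 2 and esculetin 2 called 0. Gm15500, the Rpl5 copy shown above (chr7:114705216-114706234, mm10, minus strand), reached a coverage over background of 80.2 in control 2, 7.07 in control 1 and 3.62 in esculetin 1, and had no call in esculetin 2. Its peak covered the whole annotated pseudogene. Tpt1-ps3 (chr6:99877611-99878433, minus strand) reached 67.7 in control 2 and 14.8 in control 1, with no call in either esculetin library, and the peak covered 95.4% of the pseudogene.

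Gm13456, the Eef1a1 copy (chr2:40555685-40557432, plus strand), had the highest value of these 10 in every library that called it. Its coverage over background was 88.7 in control 2, 18.6 in control 1 and 5.64 in esculetin 1. Gm11560 (chr11:99932025-99933298, plus strand), the Ybx1 copy, reached 82.4 in control 2 and 5.23 in control 1. Gm13461 matched Ran, the GTPase of nuclear transport, and reached 68.4 in control 2 and 5.38 in control 1.

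Ribosomal, splicing and ubiquitin genes made up most of the remainder. Gm8730 matched Rplp0, a protein of the ribosomal stalk, and reached 69.4 in control 2 and 11.7 in control 1. Gm10275 matched Rpl12 and reached 53.7 and 4.61. Gm12696 matched Hnrnpc, which binds nascent transcripts, and was called in control 2 alone at 64.7. Ubb-ps, named after the polyubiquitin gene Ubb, reached 59.3 in control 2 and 14.6 in control 1. Gm6863 matched Naca, a subunit of the complex that meets nascent polypeptides at the ribosome, and reached 52.2 and 4.92.

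**Figure D2:**
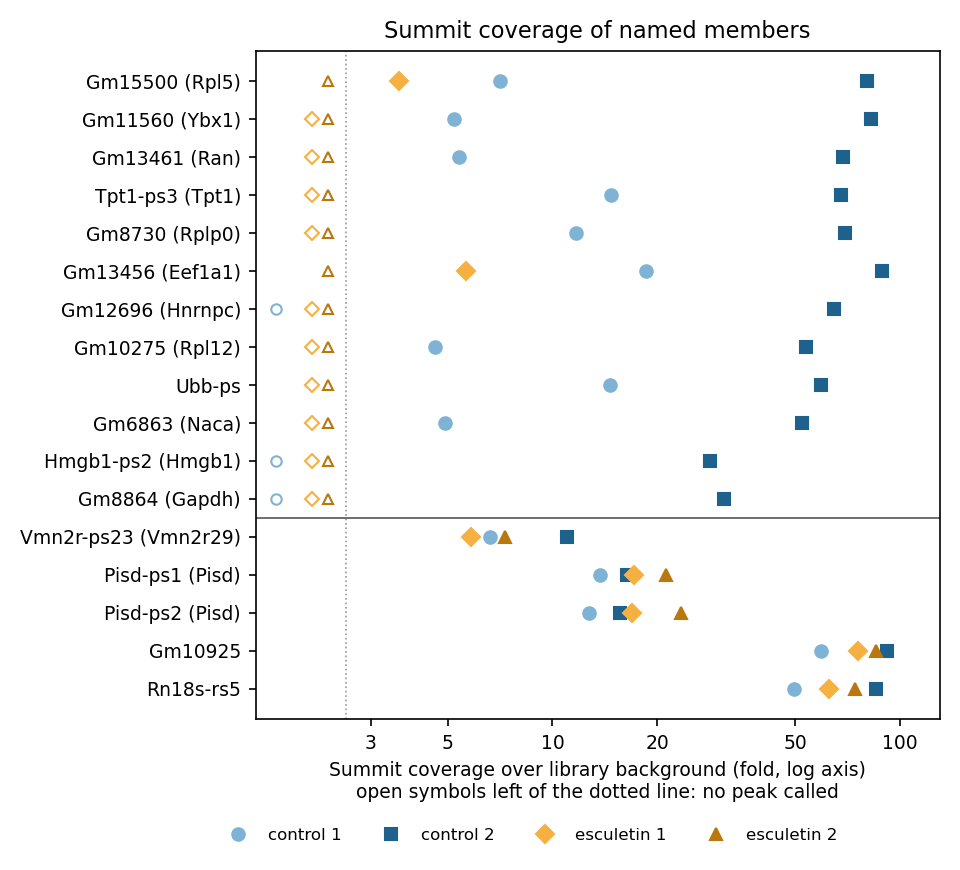
Summit coverage over library background (horizontal log axis) for the 10 members with the highest −log10 q-value in control 2, Hmgb1-ps2 and the Gapdh copy Gm8864 above the line and for 5 members called in all 4 libraries below it, with 1 symbol per library and the matched coding gene in brackets. Open symbols left of the dotted line mark libraries without a call, and among libraries with a call control 2, whose values chose the 10, lies farthest right above the line, whereas below it the 4 libraries lie closer together.

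Peaks in processed pseudogenes lay mostly within the annotated copy in every library. In control 2, 69.3% of them lay entirely inside it and 94.9% reached no more than 100 bp beyond it, and the share entirely inside was 76.1% in control 1, 79.3% in esculetin 1 and 82.8% in esculetin 2. The median control 2 peak covered 41% of the copy, and 272 of the 1643 (16.6%) covered at least 80%. The rule used only the summit, so these edges were not set by it, although a summit inside a short interval limits how far a narrow peak can reach.

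Along the 1478 processed pseudogenes with a member, the share under a control 2 peak rose from 2.57% at 100 bp before the start to 32.5% in the first 5% of the copy and to a maximum of 68.1% inside it. At 50 bp past the end it was 6.22%. Summits leaned to the 5′ side of the copy: from 5′ to 3′, the 5 equal parts of the length held 19.4%, 30.5%, 26%, 15% and 9.07% of them. At the same pseudogenes the share under a peak reached at most 8.66% in control 1, 0.88% in esculetin 1 and 0.474% in esculetin 2. In control 1, whose own 222 processed pseudogene peaks covered a median of 40.2% of the copy, the profile was likewise highest inside the copy. The 29 processed pseudogene peaks of each esculetin library covered a median of 11.4% and 8.65%, and 0 of them covered 80% or more.

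**Figure D3:**
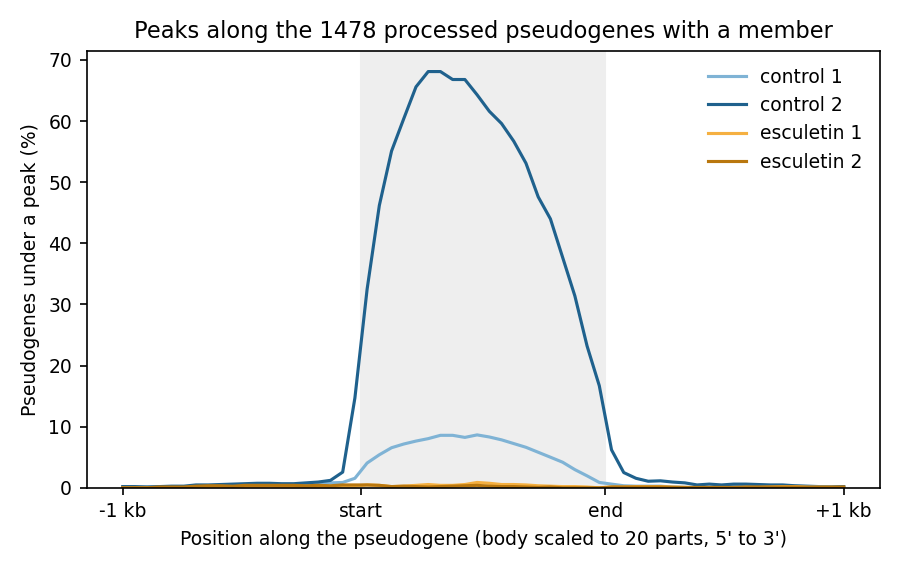
Share of the 1478 processed pseudogenes with a member that lay under a peak (vertical axis) from 1 kb before to 1 kb after the copy, with the body scaled to equal length and shaded, for each library. The control 2 curve, whose peaks selected these pseudogenes, reached 68.1% inside the body and fell to 6.22% at 50 bp past its end, and the control 1 curve reached 8.66%.

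Copies that remained most like a present-day gene carried peaks most often. Of the annotated pseudogenes, 7054 matched a coding transcript over at least 50% of their length, with a median identity of 89.9%. The members' median identity was 96.3%, and that of the annotated pseudogenes without a member was 87.9%. The share with a control 2 peak was 1.6% below 80% identity, 3.04% from 80 to 85%, 10.7% from 85 to 90%, 21.8% from 90 to 95%, 43.2% from 95 to 98% and 61.1% from 98 to 100%.

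The members' median coverage over background was 5.64, 6.62, 8.82, 9.07, 10.5 and 15 from the lowest class of identity to the highest. The median covered share of the copy was 16.5%, 14.8%, 23.9%, 33.5%, 41.8% and 58.4% in the same order. In control 1 the share was 1.09%, 0.629%, 1.13%, 2.17%, 5.25% and 13% from the lowest class to the highest. The esculetin libraries showed no steady rise: from the lowest class to the highest the share was 0.756%, 0.419%, 0.495%, 0.619%, 0.382% and 1.56% in esculetin 1, and 0.588%, 0.734%, 0.778%, 0.371%, 0.477% and 1.2% in esculetin 2. The authors removed reads that mapped to several places, which bears most on the copies of highest identity, and its part in these shares was not tested.

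**Figure D4:**
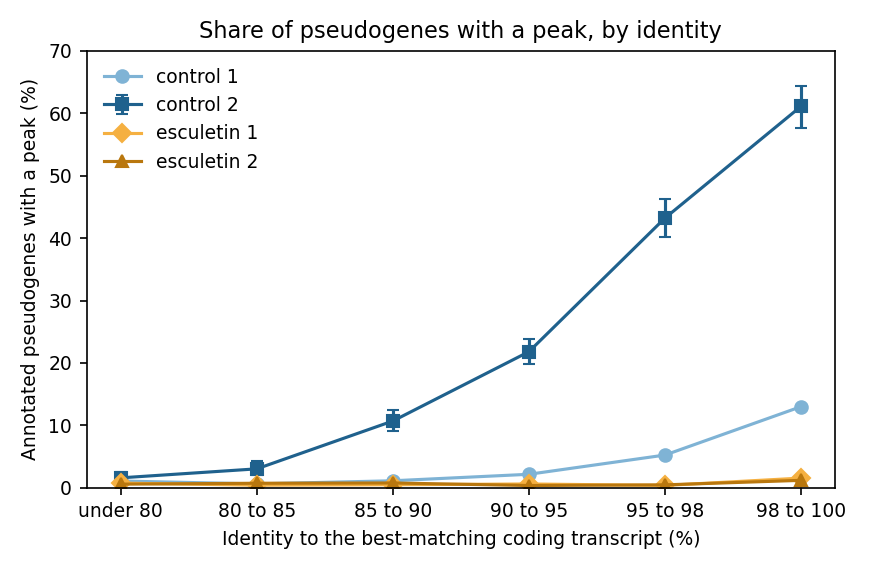
Share of annotated pseudogenes with a peak (vertical axis, %) by the identity of the copy to its best-matching coding transcript (horizontal axis, %), for each library, with exact 95% intervals for control 2. Control 2 rose from 1.6% to 61.1%, control 1 ended at 13%, and both esculetin libraries stayed at or below 1.56%.

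The symbol named a parent for 226 members, which pointed to 175 parents, and 194 of these members could be tied to 154 coding genes. The other 1696 members had no parent in the symbol, and 1641 of them carried a Gm number. By sequence, 1688 members matched 897 coding genes, including 1494 without a parent in the symbol. Where both were known, symbol and sequence gave the same gene in 162 of 170 cases, and 45 members matched several genes equally well. Of the members, 229 matched a ribosomal protein gene by sequence although their symbol did not have the form that was left out.

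Among parents named in symbols, 10 had at least 3 members and 143 had a single member. Hmgb1 had 6 members in 6 of its 9 named copies, all processed and all in control 2 alone, as were 87.9% of all processed members. Hmgb1-ps2 on the X chromosome (chrX:146175843-146176777, plus strand) was the strongest, with a coverage over background of 28.4 and a peak over the whole copy, while the others, Hmgb1-ps1, Hmgb1-ps3, Hmgb1-ps4, Hmgb1-ps7 and Hmgb1-ps9, lay between 4.17 and 8.83. Eif3s6, the older name of the translation initiation subunit gene Eif3e, had 4 members in 3 of its 4 copies, from 6.37 to 34.3 and strongest in Eif3s6-ps2, again in control 2 alone.

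The families of Eif1, Selenok, Amd and Pafah1b1 were in control 2 alone as well. Eif1, a factor of start codon selection, had 3 members between 5.88 and 8.09, strongest in Eif1-ps2. Selenok, a selenoprotein gene of the endoplasmic reticulum, had 3 between 4.9 and 5.64, strongest in Selenok-ps4. Amd, the adenosylmethionine decarboxylase of polyamine synthesis, had 3 between 7.6 and 27.7, strongest in Amd-ps3. Pafah1b1, a regulator of dynein, had 3 between 4.41 and 15.2, strongest in Pafah1b1-ps2. None of these 12 members was called in another library, as was the case for 85.6% of all members.

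The remaining families lay mostly in unprocessed or long pseudogenes, and members of each were shared between libraries. Pisd, the mitochondrial phosphatidylserine decarboxylase, had 3 members, in Pisd-ps1 and Pisd-ps2, and all were called in all 4 libraries. At the stronger Pisd-ps1 peak the coverage over background was 16.4 in control 2, 13.7 in control 1, 17.1 in esculetin 1 and 21.2 in esculetin 2. At Pisd-ps2 it was 15.7, 12.8, 16.9 and 23.4. Both were thus highest in esculetin 2 and lowest in control 1.

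Vmn2r, the family of vomeronasal pheromone receptors, had 7 members in 5 of 125 copies, of which 2 were called in control 1, 4 in esculetin 1 and 2 in esculetin 2. Its strongest member, in Vmn2r-ps23, had 11 in control 2, 6.61 in control 1, 5.84 in esculetin 1 and 7.32 in esculetin 2, and lay 40 bp from a coding start site. Gpr137b, a lysosomal membrane protein gene, had 3 members in Gpr137b-ps, 2 of them called in control 1 and 1 in each esculetin library. Speer8 had 4 members, all in Speer8-ps1, 1 of them called in control 1, 0 in esculetin 1 and 2 in esculetin 2.

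By sequence, the glycolytic gene Gapdh had the most members, 53, in 53 of its 185 annotated copies (28.6%). Their coverage over background ran from 4.17 to 38.2 with a median of 12, and 10 of them were called in control 1, 1 in esculetin 1 and 0 in esculetin 2. The copy with the highest −log10 q-value, Gm8864 on the X chromosome (chrX:88571849-88573077, minus strand), was called in control 2 alone at 31.1. Gapdh copies with a member had a median identity of 97.3%, and those without had 88.6%. Copies closest in sequence to the related gene Gapdhrt2 were counted apart from these, with 13 members in 12 of 105 copies (11.4%).

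Apart from Gapdhrt2, the next parents were ribosomal, RNA-binding, chromatin and translation genes. Rps2 had 27 members in 27 of 86 copies, Rpl7a had 21 in 21 of 83, and Hnrnpa3, a splicing factor gene, had 21 in 17 of 42. Hmgb1 had 18 in 18 of 115 by sequence, Eef1a1 14 in 10 of 27, and Rpl23a 13 in 13 of 35. The strongest copy of Eef1a1, Gm13456, was called in control 1 and esculetin 1, as given above. The strongest copies of the other 5 parents, Gm6311 for Rps2 (53.9), Gm5845 for Rpl7a (40.9), Gm5940 for Hnrnpa3 (32.4), Gm5518 for Hmgb1 (35.5) and Gm10335 for Rpl23a (27.9), were called in no esculetin library, and of these 5 only Gm10335 was called in control 1, at 3.07.

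Smaller families were sometimes covered completely. Smarca5, which encodes the ISWI remodelling ATPase SNF2H, had 10 members in all 6 of its copies, with the strongest, in Gm13135, at 33.6. All 10 were in control 2 alone, as were 85.6% of all members. Actg1, the cytoplasmic gamma actin gene, had 10 members in 7 of 23 copies, with the strongest, Gm12715, at 61.3 in control 2 and 12.5 in control 1. Ppia, the cyclophilin A gene, had 10 in 10 of 60, and its strongest copy Gm6061 reached 50 in control 2 and 5.69 in control 1. Of the 897 matched genes, 581 had 1 member, 56 had 5 or more and 11 had 10 or more. In every family of at least 10 members for which some copies had no member, the copies with a member had the higher median identity.

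The share of copies with a member differed between functional lists of parents. Of the annotated copies of ubiquitin and proteasome genes 43.1% carried a member (53 of 123). Of those of RNA-binding and splicing genes 38.8% did (81 of 209). Over all annotated pseudogenes the share was 16.8%, a base that includes 3136 without a coding match, which can enter none of these lists. The share was 30.6% for translation, 28.7% for the cytoskeleton, 27.7% for glycolysis and 23.2% for chromatin. It was 20.1% for mitochondrial proteins and 19.2% each for chaperones and cytosolic ribosomal proteins. Lists were set by gene symbol: translation includes Npm1 and Ncl, chromatin includes Ran but not Smarca5, and glycolysis leaves out Gapdhrt2. Copies of all other coding genes had 19.5%, the ferritin list 1 of 5 and pseudogenes without a coding match 6.25%. The ferritin list did not count Ftl1-ps1 (coverage over background 37.8 in control 2) and Ftl2-ps (18.6), which also carried members. In control 1, where 2.97% of all annotated pseudogenes had a peak, the order of the lists was another: 10.1% for the cytoskeleton, 7.06% for translation, 6.57% for glycolysis, 6.39% for mitochondrial proteins, 6.21% for chaperones, 4.31% for RNA binding, 4.07% for ubiquitin and proteasome genes, 3.22% for ribosomal proteins and 1.9% for chromatin. Median identity of the members lay between 95.9% and 97.6% in every list except the ferritin list, where the single member counted had 87.7%.

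The 40 members called in all 4 libraries were of another make. They lay in 35 pseudogenes. The pseudogene around such a member was a median of 12287 bp long, and the peak covered a median of 3.55% of it. There were 10 in processed, 7 in unprocessed or unitary and 23 in unclassified pseudogenes, and 9 lay within 1 kb of a coding start site. The highest was in Gm10925, at 91.9 in control 2, 59.3 in control 1, 75.9 in esculetin 1 and 85.4 in esculetin 2. Rn18s-rs5, a copy of the 18S ribosomal RNA, followed with 85.1, 49.6, 62.4 and 74.4. Against the local background, the fold enrichment of these peaks in control 2 was only 2.27 and 2.32, beside 16.1 at Tpt1-ps3. The peaks in Gm10925 and Rn18s-rs5 also reached 3885 and 3859 bp beyond the pseudogene.

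At Gm10925 and Rn18s-rs5 the order of the libraries was the same, with control 1 lowest and control 2 highest. Gm20590 had 28.4 in control 2, 20 in control 1, 24 in esculetin 1 and 27.6 in esculetin 2. At Gm19193, Gm10548 and Gm35626 the esculetin 2 value was the highest of the 4, at 11.5, 8.78 and 12.7, against 8.83, 8.09 and 8.09 in control 2. Gm10138, 68 bp from a coding start site, had 14 in control 2, 9.37 in control 1, 7.45 in esculetin 1 and 11 in esculetin 2.

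The 14 members found in an esculetin library but not in control 1 lay in 13 pseudogenes. Their coverage over background in control 2 ranged from 4.9 in Vmn2r-ps46 to 32.6 in Gm13841, a copy of the ribosomal gene Rpl29 that had 3.83 in esculetin 1. Pgam1-ps1, a copy of the phosphoglycerate mutase gene Pgam1, had 23.3 in control 2 and 3.62 in esculetin 1, and Gm2574, a copy of Gapdh, had 19.4 and 4.63. In Gm7962, which matched Ewsr1, the values were 11.3 in control 2 and 4.63 in esculetin 2. At Gm5069, which lies 7 bp from a coding start site, they were 6.37 and 5.85, and at Gm9243, 6 bp from one, 6.86 and 5.12. The others were in Vmn2r-ps17, Speer8-ps1, Gm15433, Speer4cos with 2 members, Gm5893 and Gm21811, where both values lay between 5.23 and 11.8.

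The parents themselves were then examined at their own positions, which the rule did not use, although it chose these parents through control 2 peaks in their copies. A summit inside the gene was found for 74 of the 154 parents named in symbols in control 1 (48.1%), 111 in control 2 (72.1%), 54 in esculetin 1 (35.1%) and 69 in esculetin 2 (44.8%). Over all coding genes the shares were 31.8%, 41.1%, 18.4% and 24.9% in the same order. The parents had 92.5 ± 26.2 genes with a summit in the controls and 61.5 ± 10.6 with esculetin (SD, n = 2 each), a difference of -31, which was -12.5 without control 2. An exact two-sided permutation test over the 6 splits gave p = 0.33, the smallest this design allows, but the parents were chosen through control 2 peaks and control 2 is a library of the test, so the differences between groups at these parents are a description and nothing is read from that p. When each list was restricted to its strongest 8559 peaks the counts were 40, 68, 54 and 53 and the difference was -0.5. For the 861 located parents found by sequence the counts were 421, 615, 316 and 368, with a difference of -176, which was -79 without control 2 and -2.5 with lists of equal length.

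Promoter peaks at the parents were as frequent in control 1 as in control 2. A peak within 1 kb of the start site was found for 123 of the 154 symbol parents in control 1, 123 in control 2, 109 in esculetin 1 and 129 in esculetin 2. For the 861 parents found by sequence the counts were 729, 726, 596 and 716, with a difference of -71.5 between the groups. Over all coding genes the share with a promoter peak was 39.7%, 40.9%, 29.3% and 36.9% in the same order, so esculetin 1 was lowest there too. In the final 10% of the gene, by contrast, control 2 had a summit for 37 of 153 symbol parents (24.2%) and control 1 for 12 (7.84%), against 9.16% and 2.96% of all coding genes. Esculetin 1 had 6 (3.92%) and esculetin 2 had 1 (0.654%), against 0.689% and 1.02%. For the parents found by sequence the counts were 38 in control 1 (4.41%), 209 in control 2 (24.3%), 9 in esculetin 1 (1.05%) and 6 in esculetin 2 (0.697%) of 861.

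Coding genes that have annotated copies but no member among them served as a comparison. They too were chosen through control 2, by having no member, so differences from them in control 2 are a description. A promoter peak was found for 55% of them in control 1 and 56.7% in control 2. The genes matched by members had 84.7% and 84.3%. Of the 1586 comparison genes, 8.51% had a control 2 summit in the final 10% of the gene, near the 9.16% of all coding genes. In control 1, 2.21% of the comparison genes had one. Their median length was 14.4 kb, against 17.2 kb for the genes matched by members and 17.3 kb for all coding genes. In the first 10% of the gene the genes matched by members had a summit in 34.3% of cases in control 1, 35.4% in control 2, 28.9% in esculetin 1 and 31.5% in esculetin 2. The comparison genes had one in 22.6%, 26.5%, 16.6% and 19.9% of cases, and all coding genes in 18.7%, 20.7%, 13.1% and 16.3%.

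**Figure D5:**
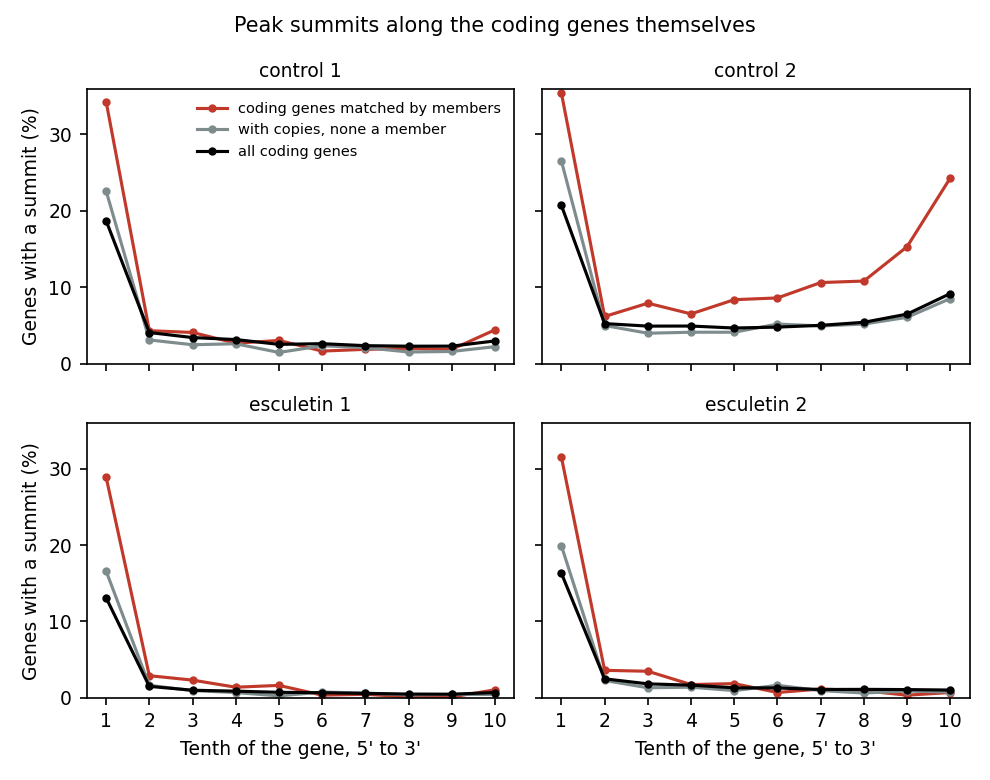
Share of genes with at least 1 peak summit (vertical axis, %) in each of 10 equal parts of the gene from 5′ to 3′ (horizontal axis), in 1 panel per library, for coding genes matched by members, coding genes with annotated copies but no member, and all coding genes. In control 2 the genes matched by members rose again toward the 3′ end to 24.3%, and in the other libraries they ended between 0.697% and 4.41%.

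The position of the strongest summit, by −log10 q-value, differed between libraries at some parents. At Eef1a1 the strongest summit lay late in the gene in both controls, 90.1% of the way along in control 2, with a coverage over background of 41.7, and 81.1% along in control 1, with 6.61. In esculetin 1 it lay 0.183% along, with 8.46, and in esculetin 2 23.4% along, with 6.59. At Rps2, which had no summit in control 1, the strongest lay 80.4% along in control 2, with 27.2, and 48.3% and 48.9% along in esculetin 1 and esculetin 2, with 9.06 and 11.5. At Hnrnpa1, a splicing factor gene with 7 members, it lay 65.1% along in control 2, with 43.4, and at 5.76%, 6.13% and 5.83% in control 1, esculetin 1 and esculetin 2.

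At other parents it did not, or no summit was called. At Gapdh the strongest summit lay between 16.8% and 17% along the gene in all 4 libraries, with 6.76 in control 1, 9.81 in control 2, 8.05 in esculetin 1 and 13.9 in esculetin 2. Smarca5, all of whose copies had a member, had a promoter peak in all 4 libraries. Its summit fell inside the gene, close to the 5′ end, in each esculetin library, at 8.86 and 12.4, and no summit lay inside the gene in either control. Eif3e and Selenok had no summit inside the gene in control 2.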

How the data were processed

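ATAC-seq peak lists of 4 libraries, 2 control and 2 esculetin, were analysed. Per the study's methods and the labels, trimming used Trim Galore and alignment to mm10 used Bowtie2, Sambamba took out duplicates and multiply mapped reads, and MACS2 called peaks for each library. The deposited files give, per peak, the authors' MACS2 fold enrichment at the summit (a ratio), −log10 p-values and q-values and an integer score, none of it as counts of reads. Names inside the esculetin 1 file carry E2 and those in the esculetin 2 file carry E3, and libraries were assigned by the deposition record.

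Summit coverage and local background were solved from the fold enrichment, taken as (coverage + 1)/(background + 1), and the Poisson p-value, and matched the deposited p-value within a relative 0.0001 for 100% of the peaks in each list. The lowest local background of a library was its background coverage. Coverage values rest on this reconstruction, and sequencing depth itself was not used here. Pseudogenes and coding genes came from the RefSeq GRCm38.p6 (mm10) table, and a summit in several pseudogenes was given to the shortest. Kind, strand and transcript sequence came from GENCODE vM39 by symbol, synonym and chromosome, without its coordinates, and start sites from RefSeq promoters. Of 10508 pseudogenes, 8438 matched a GENCODE name. The parent by sequence was the best match of BLAST+ 2.17.0 covering at least 50% of the pseudogene transcript. Identity counts gaps as differences.

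A member was called in another list when the peaks overlapped by at least 1 bp. Named members were the 10 with the highest −log10 q-value, all members of parents with at least 3, the 10 in all 4 lists with the highest lowest percentile, those in an esculetin list but not in control 1, the 3 weakest, and the strongest copy of the 12 most frequent parents by sequence, the last added after the values were seen. The members, lists and rules were chosen with earlier results of these data known. The steps were tested on simulated data (Python 3.11.15, scipy 1.17.1).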

Additional observations from a re-analysis of the deposited data

How the results depend on the processing

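The share of members called in control 1, esculetin 1 and esculetin 2 fell to 9.73%, 2.03% and 2.34% when an overlap of 50% of both peaks was required, to 6.29%, 2.47% and 1.19% among the strongest 8559 peaks of each list, and to 11.7%, 1.4% and 0.974% for processed pseudogenes only. Requiring the other summit inside the member, a −log10 q-value of at least 5, leaving out members in coding genes or near a coding start, and keeping ribosomal protein pseudogenes moved these shares by less than their intervals. The share in control 2 alone rose to 89.6% with the 50% overlap. With a −log10 q-value of at least 5 the pseudogene peaks numbered 221 in control 1, 58 in esculetin 1 and 54 in esculetin 2, and among the strongest 8559 peaks 99 in control 1, 1176 in control 2, 101 in esculetin 1 and 40 in esculetin 2, so control 2 had the most under each setting run. Leaving out 1 library, the difference in mean pseudogene peaks (esculetin minus control) ranged from -1819 without control 1 to -250 without control 2, and that in parents with a summit inside the gene from -49.5 to -12.5 by symbol and from -273 to -79 by sequence. Replicate numbers did not pair the libraries by any label, and deviations of same-numbered libraries correlated at -0.122 over the symbol parents and -0.0285 over the sequence parents. With a replicate block the differences were -31 and -176 (exact sign-flip p = 0.5, the smallest it allows, from which nothing is read since the parents were chosen through control 2). The crossed pairing, added after seeing the data, gave differences of -5 and -57 parents by symbol.

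A missing call gives no level, and the lists differ in length and background.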
